A study of Mus musculus with 58 samples.

Results

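Complement is a set of blood and tissue proteins that tag targets for removal, and in the brain it also marks synapses and amyloid deposits for uptake by microglia. The genes described are components, receptors and the main inhibitor of its early steps, chosen by name as C1qa, C1qb, C1qc, C3, C4b, C3ar1, C5ar1 and Serping1. Earlier results of these data were known when they were chosen. A probe set carried the gene symbol of 6 of these 8, and those 6 were described among 17216 named genes. C3 and C4b are not analysed here.

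The arrays were Affymetrix GeneChips, labelled by the HT 3′ IVT PLUS procedure, of the frontal cortex and hippocampus of C57BL/6J mice aged 8 months. TG mice carried the APP/PS1 transgenes, which encode mutant human amyloid precursor protein and presenilin 1 and cause amyloid plaques, and WT mice of the same background carried neither. The promoter that drives the transgenes and the number of founder lines are not stated in the labels. There were 58 arrays of 30 mice, and 28 mice gave an array of each region. The frontal cortex groups held 8 male WT, 8 male TG, 6 female WT and 6 female TG arrays. The hippocampus groups held 8 male WT, 8 male TG, 7 female WT and 7 female TG arrays. Replicates were separate mice. Males and females had separate ranges of mouse numbers, so sex and any batch of animals cannot be told apart.

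C1q is the recognition molecule of the classical pathway. Its A, B and C chains are encoded by separate genes and are made into a single protein, and in the mouse brain microglia are its main source. Bound C1q starts a protease cascade that cleaves C4 and then C3. The fragments C3a and C5a are sensed by the receptors C3ar1 and C5ar1 on microglia and other myeloid cells, and the C1 inhibitor Serping1 blocks the proteases that C1q activates.

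The C1qb, C1qc and C1qa genes were neighbours, in that order, on chromosome 4 in the RefSeq gene table. C3ar1 was on chromosome 6, C5ar1 on chromosome 7 and Serping1 on chromosome 2. RefSeq promoter windows of build GRCm38.p6, from 250 bases before the start of the gene to 50 bases after it, were at hand for 4 of the 6 genes. These windows are shown because C1qb and C1qc, described below, had nearly the same pattern across arrays. Capitals mark the letters GAGGAA, on either strand, the core that PU.1, a transcription factor of microglia and macrophages, can bind. All 4 windows lie on the minus strand, C1qb at chr4:136886151-136886450, C1qc at chr4:136892865-136893164, C3ar1 at chr6:122856108-122856407 and C5ar1 at chr7:16259289-16259588.
C1qb: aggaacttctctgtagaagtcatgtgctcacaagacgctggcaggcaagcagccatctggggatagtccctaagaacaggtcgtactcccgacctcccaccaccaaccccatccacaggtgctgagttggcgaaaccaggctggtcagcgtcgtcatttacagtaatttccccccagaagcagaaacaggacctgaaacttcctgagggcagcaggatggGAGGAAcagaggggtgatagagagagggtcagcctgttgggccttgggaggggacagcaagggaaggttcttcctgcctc
C1qc: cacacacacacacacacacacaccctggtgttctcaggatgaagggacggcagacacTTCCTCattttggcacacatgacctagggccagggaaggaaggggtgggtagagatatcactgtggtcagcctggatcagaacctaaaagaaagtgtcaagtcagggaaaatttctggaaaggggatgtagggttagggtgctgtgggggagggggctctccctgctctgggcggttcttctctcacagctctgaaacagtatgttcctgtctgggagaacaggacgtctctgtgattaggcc
C3ar1: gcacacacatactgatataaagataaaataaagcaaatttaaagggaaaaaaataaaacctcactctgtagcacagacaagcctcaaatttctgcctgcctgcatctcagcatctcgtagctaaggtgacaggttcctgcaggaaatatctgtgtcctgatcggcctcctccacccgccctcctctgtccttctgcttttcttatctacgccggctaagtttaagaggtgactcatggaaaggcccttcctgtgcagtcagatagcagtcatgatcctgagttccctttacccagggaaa
C5ar1: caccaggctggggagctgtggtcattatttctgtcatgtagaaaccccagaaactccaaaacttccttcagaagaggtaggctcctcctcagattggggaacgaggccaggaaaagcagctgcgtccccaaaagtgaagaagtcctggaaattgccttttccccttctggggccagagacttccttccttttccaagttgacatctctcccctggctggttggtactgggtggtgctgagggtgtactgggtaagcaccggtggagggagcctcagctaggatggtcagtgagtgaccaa
GAGGAA was found once in the C1qb window, starting at base -30 from the gene's start, and once in the C1qc window, at -193. The C1qc match was part of the longer PU.1 letters GAGGAAGT, at -195. Neither form was found in the C3ar1 or C5ar1 window. Over 32851 windows of 300 bases, GAGGAA was present in 28.28% and GAGGAAGT in 3.2%, so the shorter match is common. The interferon response letters GAAANNGAA, present in 8.56% of windows, matched once in C5ar1, at -66. TTGCNNAA, which C/EBP factors can bind, was in 10.8% of windows and TTCNNNGAA, which STAT factors can bind, in 8.3%, and neither was in these 4 windows. All motifs were searched on both strands. These matches describe letters and not bound sites.

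Values are log2 expression values that the authors computed, and they ran from 2.28 to 13.6 with array medians from 4.73 to 4.85. Pairs of arrays had correlations from 0.961 to 0.997 across genes. Xist lay between 3.13 and 3.46 on the male arrays and between 9.54 and 10.4 on the female arrays. Thy1, whose promoter is used in several APP/PS1 lines, was higher on every TG array than on every WT array of its sex and region except on the female TG hippocampus array of mouse 7. That array had a Thy1 value of 10.92, against 11.90 to 12.32 on the other female TG hippocampus arrays and at most 10.997 on the WT arrays. It is kept under its label. The TG effects on C1qa, C1qb, C1qc, C3ar1, C5ar1 and Serping1 in the female hippocampus are given with and without it. Those on other complement genes and on the marker genes of cell types are given there only with it. Marker genes of microglia, astrocytes, neurons and oligodendrocytes were measured in both regions. Precision is limited by how many arrays each group has.

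All 3 C1q chain genes were among the brighter probe sets, at percentiles 94.7, 89.59 and 92.65 of the named genes for C1qa, C1qb and C1qc in their mean over all arrays. Serping1 was at percentile 53.21, C3ar1 at 40.9 and C5ar1 at 16.4. Probe sets differ in how strongly they bind, so these ranks give the room each probe set had above the low end of the scale and do not order the amounts of the messages. C5ar1 was close to that low end, and C3ar1 in WT mice lay near the 25th percentile of the named genes, 3.33. Folds of both may be understated, and no detection calls were used.

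C1q rose most in the frontal cortex of TG mice. In the male frontal cortex C1qa ran from 7.86 to 8.21 in WT (median 8.08) and from 9.93 to 10.70 in TG (median 10.30). C1qb ran from 7.04 to 7.40 in WT (median 7.14) and from 9.35 to 10.09 in TG (median 9.66). C1qc ran from 7.56 to 7.99 in WT (median 7.69) and from 9.73 to 10.44 in TG (median 9.98). Every TG array was above every WT array for all 3 chains, with the lowest TG value at least 1.72 log2 units above the highest WT value. The rise was 2.28 log2 units for C1qa (SE 0.13, limma adjusted p = 5.77e-14), a 4.85-fold difference with a 95% interval from 4.02 to 5.85. It was 2.48 for C1qb (SE 0.14, limma adjusted p = 3.48e-14) and 2.28 for C1qc (SE 0.13, limma adjusted p = 7.28e-14). Tissue was measured in bulk, so more cells of a type and more message per cell cannot be told apart.

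**Figure D1:**
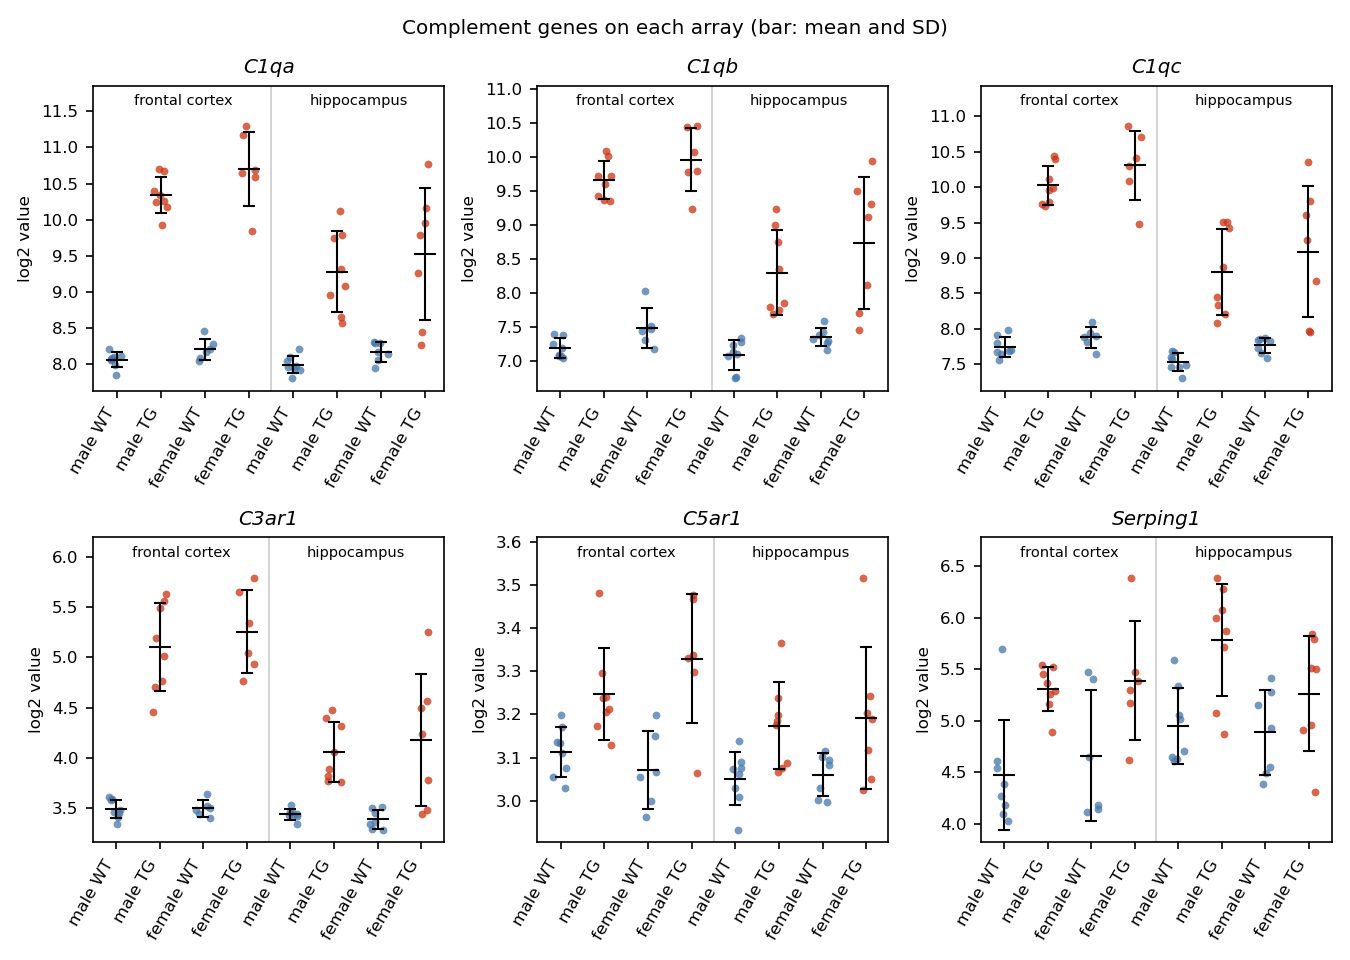
Log2 value of each gene on each of the 58 arrays (points), with the mean and SD of each group (bars), by region, sex and genotype. For C1qa, C1qb, C1qc and C3ar1 the TG points of the frontal cortex lie wholly above the WT points, and the TG points of the hippocampus lie lower, with a wider spread for the C1q chains.

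The females had the same pattern. In the female frontal cortex C1qa ran from 8.05 to 8.45 in WT (median 8.19) and from 9.85 to 11.29 in TG (median 10.67). C1qb ran from 7.17 to 8.04 in WT (median 7.45) and from 9.24 to 10.45 in TG (median 9.93). C1qc ran from 7.64 to 8.09 in WT (median 7.89) and from 9.48 to 10.86 in TG (median 10.35). The groups again did not overlap, and the gap between the highest WT and the lowest TG array was at least 1.21 log2 units. C1qa rose by 2.50 (SE 0.15, limma adjusted p = 2.66e-13), a 5.64-fold difference with a 95% interval from 4.54 to 7.003. C1qb rose by 2.48 (SE 0.16, limma adjusted p = 1.16e-12) and C1qc by 2.43 (SE 0.15, limma adjusted p = 6.08e-13).

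In the hippocampus C1q also rose, to a lower level and with a far wider spread among TG mice. The male C1qa values ran from 7.80 to 8.21 in WT (median 7.97) and from 8.58 to 10.12 in TG (median 9.20). For C1qb the male range was 6.74 to 7.33 in WT (median 7.12) and 7.69 to 9.23 in TG (median 8.10). For C1qc it was 7.30 to 7.68 in WT (median 7.53) and 8.09 to 9.51 in TG (median 8.66). The male groups did not overlap, but the gaps were between 0.35 and 0.40 log2 units. C1qa was 1.29 higher in TG males (SE 0.25, limma adjusted p = 0.00742), a 2.44-fold difference with a 95% interval from 1.71 to 3.47. C1qb was 1.22 higher (SE 0.27, limma adjusted p = 0.0172) and C1qc 1.27 higher (SE 0.26, limma adjusted p = 0.00869). The C1qb call was lost without the array of male TG mouse 40 (1.09, limma adjusted p = 0.0538) or 50 (1.12, limma adjusted p = 0.0519). It was also lost with the mean of choroid plexus markers (1.25, limma adjusted p = 0.0587) or of meningeal markers (1.34, limma adjusted p = 0.061) as a covariate.

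In the female hippocampus C1qa ran from 7.95 to 8.30 in WT (median 8.17) and from 8.27 to 10.77 in TG (median 9.79). C1qb ran from 7.16 to 7.59 in WT (median 7.32) and from 7.46 to 9.94 in TG (median 9.12). C1qc ran from 7.59 to 7.87 in WT (median 7.82) and from 7.95 to 10.35 in TG (median 9.25). Mouse 7 gave the lowest TG value for all 3 chains, within the WT range for C1qa and C1qb, and mouse 8 gave the next lowest, with 8.44 for C1qa. C1qa was 1.35 higher in TG (SE 0.27, limma adjusted p = 0.0046), C1qb 1.39 higher (SE 0.29, limma adjusted p = 0.00673) and C1qc 1.32 higher (SE 0.27, limma adjusted p = 0.00664). Without mouse 7 these were 1.56 (limma adjusted p = 0.000319), 1.60 (limma adjusted p = 0.000631) and 1.51 (limma adjusted p = 0.000735). When only the 7 WT and 7 TG female arrays were fitted, so that the wide spread of the TG group was not pooled with the males, the same differences had limma adjusted p = 0.0845 for C1qa and 0.087 for C1qb and C1qc.

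C3ar1, the receptor of the C3a fragment, rose in the frontal cortex of both sexes. In males it ran from 3.34 to 3.61 in WT (median 3.47) and from 4.45 to 5.63 in TG (median 5.11). In females it ran from 3.40 to 3.64 in WT (median 3.49) and from 4.77 to 5.79 in TG (median 5.20). No TG array overlapped a WT array. The rise was 1.61 in males (SE 0.14, limma adjusted p = 7.98e-10), a 3.05-fold difference with a 95% interval from 2.49 to 3.74. In females it was 1.76 (SE 0.16, limma adjusted p = 2.8e-09), a 3.38-fold difference with a 95% interval from 2.68 to 4.27.

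In the hippocampus C3ar1 was between 3.34 and 3.54 in WT males (median 3.44) and between 3.76 and 4.48 in TG males (median 3.97), without overlap. The difference of 0.62 in males (SE 0.17) narrowly missed the threshold, with limma adjusted p = 0.0527. It passed without the array of female TG mouse 4, 7 or 8, which shared the estimate of the spread, or of male TG mouse 41 or 45, with adjusted p from 0.00651 to 0.0467. It also passed with array weights (limma adjusted p = 0.00329), with all 8 groups fitted together (0.0249) and with the 2 male groups fitted alone (0.00117). Female WT values ran from 3.28 to 3.51 (median 3.36) and female TG values from 3.44 to 5.25 (median 4.24). Of the 7 female TG arrays 5 were above the highest WT array, and mice 7 and 8 lay within the WT range. The rise in females was 0.79 (SE 0.18, limma adjusted p = 0.0125), and 0.91 without mouse 7 (limma adjusted p = 0.00146). With the 2 female groups fitted alone, the adjusted p was 0.156 in limma.

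C5ar1, the receptor of C5a, differed little. In the female frontal cortex it ran from 2.96 to 3.198 in WT (median 3.06) and from 3.07 to 3.48 in TG (median 3.33), with 5 of 6 TG arrays above every WT array. That rise of 0.26 passed the test (SE 0.06, limma adjusted p = 0.00427). In the male frontal cortex it ran from 3.03 to 3.199 in WT (median 3.12) and from 3.13 to 3.48 in TG (median 3.23). The difference of 0.13 (SE 0.05) had limma adjusted p = 0.0862. In the hippocampus the differences were 0.12 in males (SE 0.05, limma adjusted p = 0.288) and 0.13 in females (SE 0.06, limma adjusted p = 0.272), and WT and TG arrays overlapped. The female difference was 0.16 without mouse 7 (limma adjusted p = 0.144) and 0.08 without mouse 4 (limma adjusted p = 0.53). The intervals of the 3 differences that did not pass ran from 0.01 to 0.25 with all arrays.

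Serping1, the C1 inhibitor, rose in 1 of the 4 comparisons, and its WT and TG arrays overlapped in all 4. In the male frontal cortex it ran from 4.03 to 5.70 in WT (median 4.33) and from 4.89 to 5.54 in TG (median 5.33). The highest value of these 16 arrays came from WT mouse 51. The rise of 0.83 passed the test (SE 0.23, limma adjusted p = 0.00914), a 1.78-fold difference with a 95% interval from 1.29 to 2.46, and it was 1.005 without mouse 51. In the female frontal cortex it ran from 4.11 to 5.48 in WT (median 4.42) and from 4.62 to 6.38 in TG (median 5.34), a difference of 0.73 (SE 0.26, limma adjusted p = 0.0516). That difference passed without the array of male WT mouse 51, female WT mouse 5 or 6, or female TG mouse 8, with adjusted p from 0.0168 to 0.0227. It fell to 0.53 without female TG mouse 4, whose array had the highest value and a meningeal marker mean of 5.95. It also passed with array weights (limma adjusted p = 0.0366), with all 8 groups fitted together (0.047) and among genes above the median level (0.0345).

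In the male hippocampus Serping1 ran from 4.61 to 5.59 in WT (median 4.86) and from 4.87 to 6.39 in TG (median 5.93). In the female hippocampus it ran from 4.39 to 5.41 in WT (median 4.93) and from 4.31 to 5.85 in TG (median 5.50), where the TG group held both the lowest and the highest array. The difference was 0.83 in males (SE 0.22, limma adjusted p = 0.052) and 0.37 in females (SE 0.24, limma adjusted p = 0.525). Without mouse 7 the female difference was 0.28 (limma adjusted p = 0.659). The male difference passed without any of 8 single arrays, with adjusted p from 0.0146 to 0.0482, and those were male WT mice 48 and 52, male TG mice 41 and 45, and female TG mice 4, 7, 8 and 11. It also passed with array weights (limma adjusted p = 0.0199), with all 8 groups fitted together (0.0454), with the 2 male groups fitted alone (0.029) and among genes above the median level (0.0409).

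**Figure D2:**
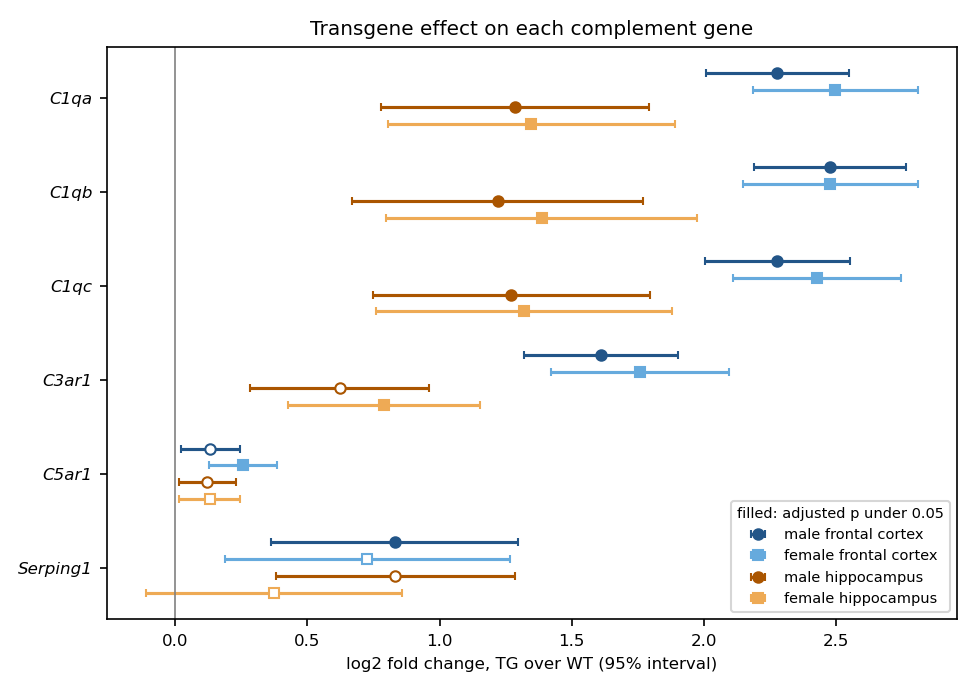
Log2 fold change of TG over WT for each gene in each sex and region (points), with 95% intervals (bars). The C1q chains lie between 2.28 and 2.48 in the male frontal cortex and between 1.22 and 1.29 in the male hippocampus, while C5ar1 stays at or below 0.26 in all 4 comparisons.

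By count, 5 of the 6 genes rose in the male frontal cortex and 5 in the female frontal cortex, where 8.8% and 8.75% of all named genes rose at the same threshold. In males the exception was C5ar1 and in females Serping1. In the hippocampus 3 of 6 rose in males and 4 of 6 in females, against 1.04% and 1.54% of all genes. Since the genes were chosen with earlier results of these data known, the counts describe them and do not test the set. Without mouse 7 the female count was still 4, and the genes called higher in all numbered 379 rather than 265. None of the 6 fell in any comparison, where 11.7%, 10.2%, 0.261% and 0.929% of all named genes fell. For 6 genes that count is near the background. The median log2 difference over the 6 genes was 1.94, 2.09, 1.03 and 1.06 in these comparisons, and over all genes it was -0.02, -0.01, -0.01 and -0.01. Every TG array lay above every WT array for 4, 4, 4 and 1 of the 6 genes, against 3.08%, 4.5%, 0.68% and 0.197% of all genes. In the female hippocampus that gene was C1qc.

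The effect was smaller in the hippocampus for 4 of the 6 genes, by the test of the difference itself. With all 8 groups fitted together and the sexes averaged, the effect in the hippocampus minus that in the frontal cortex was -1.07 for C1qa (SE 0.22, limma adjusted p = 0.00108). It was -1.17 for C1qb (SE 0.24, limma adjusted p = 0.000871), -1.06 for C1qc (SE 0.23, limma adjusted p = 0.00172) and -0.98 for C3ar1 (SE 0.17, limma adjusted p = 0.000113). C5ar1 had -0.07 (95% interval -0.18 to 0.04) and Serping1 -0.18 (95% interval -0.67 to 0.32), neither past the threshold. Of all genes 6.89% differed between the regions in this way. Without mouse 7 the differences of the 4 genes were between -1.07 and -0.92, and all 4 calls remained. This fit treated the arrays of a mouse as independent. For the 4 genes, deviations from group means had r between regions from 0.71 to 0.83 over 28 mice. All 4 calls also remained with the mouse as a fixed or as a random term.

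In WT mice none of the 6 genes differed between the regions past the threshold in the fit without the mouse as a block. WT hippocampus minus WT frontal cortex was -0.05 for C1qa, -0.12 for C1qb, -0.17 for C1qc, -0.08 for C3ar1 and -0.04 for C5ar1, with limma adjusted p from 0.451 to 0.834. Serping1 was 0.35 higher in the hippocampus (SE 0.17, limma adjusted p = 0.112). With the mouse as a fixed term (replicate block) it was 0.39 higher and passed (limma adjusted p = 0.0368). It did not pass with the mouse as a random term. Of all genes 38.8% differed between the regions of WT mice.

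No sex difference in the TG effect was called by limma for any gene, with 0% in the frontal cortex and 0% in the hippocampus, although 1130 and 842 genes had an unadjusted p under 0.05. None of the 6 was among them. Female minus male, the TG effect on C1qa differed by 0.22 in the frontal cortex (95% interval -0.19 to 0.63) and by 0.06 in the hippocampus (95% interval -0.68 to 0.81). The intervals for C3ar1 ran from -0.30 to 0.59 and from -0.33 to 0.66. The Serping1 difference was -0.46 in the hippocampus (95% interval -1.12 to 0.20). Without mouse 7 the hippocampus differences were 0.27 for C1qa (SE 0.33), 0.38 for C1qb (SE 0.36), 0.24 for C1qc (SE 0.35), 0.29 for C3ar1 (SE 0.23), 0.04 for C5ar1 (SE 0.08) and -0.55 for Serping1 (SE 0.33). Their limma adjusted p ran from 0.868 to 0.973, and no gene was called. Between WT females and WT males 0.157% of genes differed in the frontal cortex and 1.02% in the hippocampus, and the 6 genes had differences between -0.06 and 0.30, none past the threshold.

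The order of the 8 groups was the same for the 3 C1q chains: female TG frontal cortex, male TG frontal cortex, female TG hippocampus, male TG hippocampus, and then the 4 WT groups. For C1qa the means were 10.71 (SD 0.51), 10.34 (SD 0.25), 9.52 (SD 0.92) and 9.28 (SD 0.56) in the TG groups, and the WT groups lay between 8.00 and 8.21. Males and females of the same region and genotype TG differed by less than the larger of their SDs. The step from the lowest TG group to the highest WT group, 1.07 for C1qa, was the only one above the larger SD of its neighbours for that gene. Serping1 had another order, led by the male TG hippocampus at 5.78 (SD 0.55), and no step between neighbours in it exceeded the larger SD.

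The chains moved together from mouse to mouse, a relation examined after the values had been seen. Among the 14 TG frontal cortex arrays, deviations from the mean of each sex had Pearson's r of 0.96 and Spearman's rho of 0.952 for C1qa with C1qb. The other pairs had r of 0.955 (rho 0.93) and 0.978 (rho 0.943). Among the 15 TG hippocampus arrays the 3 pairs had r from 0.978 to 0.988 and rho from 0.957 to 0.996. All 6 had a permutation p of 5e-05, raw and adjusted over the 6, which is the smallest that these permutations can give. Without the 2 arrays farthest from the median, r was between 0.931 and 0.984.

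C3ar1 followed the mean of the 3 chains among TG arrays, and the other genes less clearly. The relation of the C1q mean with C3ar1 had r = 0.89 and rho = 0.969 in the frontal cortex, and r = 0.968 and rho = 0.95 in the hippocampus, each with a permutation p of 3e-05 adjusted over 6 relations, from the smallest raw p possible, 1e-05. Without the 2 farthest arrays r was 0.846 and 0.977. With C5ar1 r was 0.618 in the frontal cortex (rho 0.631, permutation p = 0.0396, adjusted p = 0.0791; adjusted p for rho 0.038) and 0.404 in the hippocampus (rho 0.411, permutation p = 0.202 raw and adjusted). With Serping1 r was 0.616 in the frontal cortex (rho 0.402, permutation p = 0.0799, adjusted p = 0.12), and it fell to 0.465 without mice 11 and 4. In the hippocampus it was 0.457 (rho 0.425, permutation p = 0.1, adjusted p = 0.12), but 0.706 without mouse 7 (adjusted permutation p = 0.0118). On that array Serping1 was 5.79, near the top of its group, while the C1q chains were the lowest.

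A TG mouse with high C1q in the frontal cortex also had high C1q in the hippocampus. This relation was examined after the values had been seen. Over the 14 TG mice with both regions, deviations from the sex means gave r = 0.908 and rho = 0.877 for C1qa (permutation p = 4e-05, adjusted over 6 genes p = 0.00024). For C1qb r was 0.851 (rho 0.842), for C1qc 0.875 (rho 0.802) and for C3ar1 0.783 (rho 0.776), with adjusted permutation p from 0.00078 to 0.00105. C5ar1 had r = 0.341 (rho 0.336, adjusted permutation p = 0.34) and Serping1 r = 0.28 (rho 0.125, adjusted permutation p = 0.38). Without the 2 farthest mice r was 0.88 for C1qa, 0.795 for C1qb, 0.84 for C1qc and 0.831 for C3ar1, but -0.221 for Serping1.

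The C1q mean was lower in the hippocampus than in the frontal cortex in 14 of 14 TG mice and in 11 of 14 WT mice. The gap ran from 0.46 to 1.74 log2 units in TG mice (median 1.01) and from -0.19 to 0.57 in WT mice (median 0.07). It was smallest in female mouse 4, whose values were 10.82 and 10.36, and largest in male mouse 44, whose values were 9.95 and 8.20.

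**Figure D3:**
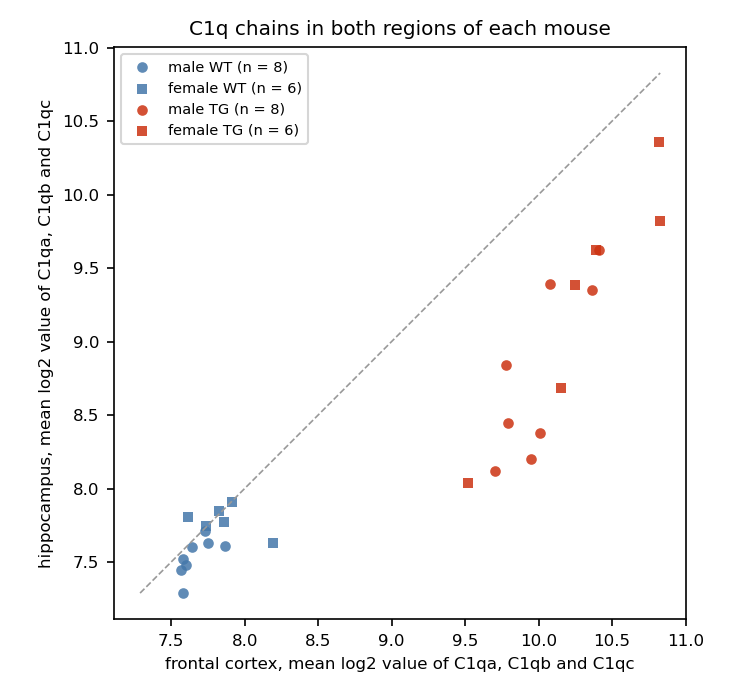
Mean log2 value of C1qa, C1qb and C1qc in the hippocampus (vertical) against the frontal cortex (horizontal) for the 28 mice with both regions, by sex and genotype; the dashed line marks equal values. The 14 TG mice lie from 9.52 to 10.83 on the frontal cortex axis, apart from the WT mice at 7.57 to 8.19, and all of them fall below the line.

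Genes whose values followed each complement gene most closely were sought over all named genes, as the mean of r in the 28 frontal cortex arrays and r in the 30 hippocampus arrays, after group means were removed. C1qa was nearest to Csf1r, the receptor that microglia need to survive (0.95), Ctsz, a lysosomal cathepsin (0.94), and Plek (0.93). C1qb was nearest to Tyrobp, a signalling adaptor of myeloid cells (0.95), Csf1r (0.95) and Laptm5 (0.93). C1qc was nearest to Tyrobp, Csf1r and Ctsz, all at 0.95. C3ar1 was nearest to Plek (0.91), Cd14, a co-receptor for bacterial lipids (0.89), and Ctsz (0.89). C5ar1 had no close match, with H2-D1 at 0.60 and Lag3 and Gpr65 at 0.59. Serping1 was nearest to Bgn, a matrix proteoglycan (0.80), Slc13a4, a sulfate transporter (0.78), and Ogn (0.75). Means of cell type markers were compared with C1qa in the same way. In the frontal cortex and hippocampus, its r was 0.91 and 0.98 with homeostatic microglia markers and 0.78 and 0.91 with astrocyte markers. With oligodendrocyte markers r was 0.06 and 0.41, and with neuron markers -0.26 and -0.66. The covariation was thus not particular to microglial genes. These values describe the arrays, and much of the spread they rest on lies between TG mice.

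Microglial markers rose in the same comparisons. Of 14 measured homeostatic microglia markers, 13 rose in the male frontal cortex, 14 in the female frontal cortex, and 10 in the hippocampus of each sex. Their median log2 differences were 1.75, 1.84, 0.88 and 0.96, each below the C1q differences of that comparison. Single markers ran from 0.35 to 2.44, 0.57 to 2.62, 0.13 to 1.31 and 0.27 to 1.29, so some rose as much as the C1q chains. The mean of these markers ran from 6.32 to 6.76 in male WT and from 7.99 to 8.46 in male TG frontal cortex, and from 6.55 to 6.82 and from 7.85 to 8.90 in females. In the hippocampus it ran from 6.28 to 6.55 and from 6.81 to 7.78 in males, and from 6.35 to 6.63 and from 6.47 to 8.40 in females. Of 12 measured plaque-associated microglia markers, 12, 12, 9 and 11 rose, with medians of 2.23, 2.39, 1.11 and 1.17. With the mean of the homeostatic markers as a covariate, none of the 6 genes passed in any of the 4 comparisons. The C1qa difference was 0.25 in the male and 0.33 in the female frontal cortex, and 0.16 and 0.11 in the hippocampus. Its SE went from 0.13 to 0.21 and from 0.15 to 0.22 in the frontal cortex. In the hippocampus it went from 0.25 to 0.07 and from 0.27 to 0.08. That covariate separates TG from WT nearly as the genotype does, except in the female hippocampus, where the ranges overlap. Under it only 4 named genes in the frontal cortex of each sex and 8 in the hippocampus of each sex were still called higher.

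Of 10 measured markers of blood leukocytes and border macrophages, 1, 0, 1 and 0 rose, where 8.8%, 8.75%, 1.04% and 1.54% of all named genes rose. Their mean ran from 3.18 to 5.47, with the highest value on the female TG frontal cortex array of mouse 4 and the next at 4.29. Of 12 astrocyte markers, 11 rose in the frontal cortex of each sex, 1 in the male hippocampus and 2 in the female hippocampus, with medians of 0.41, 0.42, 0.04 and 0.22. Of 11 measured endothelium and pericyte markers, 6, 2, 0 and 0 rose, with medians of 0.30, 0.21, 0.08 and -0.17. Of 10 neuron markers, 3, 5, 0 and 1 fell, where 11.7%, 10.2%, 0.261% and 0.929% of all named genes fell. The part of these cell types in the complement differences was not tested.

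Serping1 varied with meningeal markers. Over all 28 frontal cortex arrays, after group means were removed, its r with the mean of 10 markers of meninges and fibroblasts was 0.801 (rho 0.634, permutation p = 0.0002, adjusted over the 2 regions p = 0.0002; for rho 0.0013). Over the 30 hippocampus arrays it was 0.727 (rho 0.767, permutation p = 5e-05, the smallest possible, adjusted p = 0.0001). Without the 2 farthest arrays r was 0.607 and 0.69. This relation was examined after the values had been seen. Over the same arrays r of these markers with C1qa was 0.17 in the frontal cortex and -0.13 in the hippocampus. Serping1 had r of 0.47 and 0.61 with the blood leukocyte and border macrophage markers and of -0.06 and 0.45 with the choroid plexus markers.

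The mean of the meningeal markers was 4.39 (SD 0.41) in male WT and 4.66 (SD 0.21) in male TG frontal cortex, and 4.50 (SD 0.31) and 4.73 (SD 0.62) in females. In the male hippocampus it was 4.61 (SD 0.24) in WT and 5.09 (SD 0.38) in TG, and 4.49 (SD 0.30) and 4.55 (SD 0.34) in females. None of the 10 passed in any TG comparison. With this mean as a covariate the Serping1 difference was 0.56 in the male frontal cortex (limma adjusted p = 0.00746) and 0.49 in the female frontal cortex (limma adjusted p = 0.0386). In the male hippocampus it was 0.31 (limma adjusted p = 0.654), less than the 0.83 without the covariate, and in the female hippocampus 0.30 (limma adjusted p = 0.437). The covariate was added after the values had been seen. The mean of 13 choroid plexus markers in the male hippocampus was 4.54 in WT (3.66 to 7.49) and 6.22 in TG (3.96 to 7.77), and 0 of the 13 passed there. With it as a covariate the Serping1 difference there was 0.57 (limma adjusted p = 0.34).

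**Figure D4:**
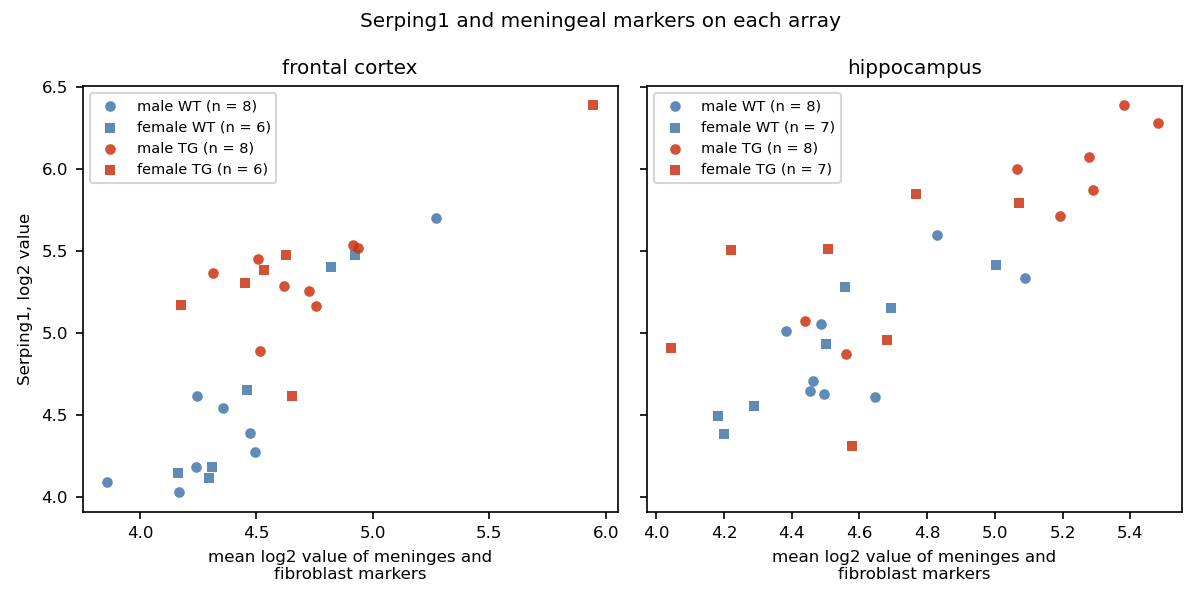
Serping1 log2 value (vertical) against the mean log2 value of 10 meninges and fibroblast markers (horizontal) on each array, in the 28 frontal cortex and 30 hippocampus arrays, by sex and genotype. Serping1 is higher on arrays with higher meningeal markers in both regions (r after removing group means 0.801 and 0.727), and in the frontal cortex most TG points lie above WT points of a like marker level.

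The rest of the complement system was covered by a list of 54 other genes, of which 45 were measured. In the male frontal cortex 7 rose and 1 fell, and in the female frontal cortex 7 rose and 2 fell. In the hippocampus 1 rose in males and 4 in females, and none fell. The background is that given above, with 8.8%, 8.75%, 1.04% and 1.54% of all genes called higher and 11.7%, 10.2%, 0.261% and 0.929% called lower. The median log2 difference of the list was 0.01, 0.03, 0.03 and 0.02, close to that of all genes.

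The rises were led by receptors of cleaved C3. Itgb2, the shared beta chain of complement receptors 3 and 4, rose from 5.88 to 8.53 in the male frontal cortex, by 2.65 (SE 0.14, limma adjusted p = 9.06e-15). It rose by 2.80 in the female frontal cortex (SE 0.16), by 1.41 in the male hippocampus (SE 0.29) and by 1.56 in the female hippocampus (SE 0.31). Itgam, the alpha chain of complement receptor 3, rose by 1.89 (SE 0.19) and 1.91 (SE 0.22) in the male and female frontal cortex and by 1.04 (SE 0.27) in the female hippocampus. Itgax, the alpha chain of complement receptor 4 and a marker of plaque-associated microglia, rose by 1.88 (SE 0.19), 2.09 (SE 0.22) and 0.79 (SE 0.19) in these. In the male hippocampus Itgam differed by 0.59 (limma adjusted p = 0.282) and Itgax by 0.65 (limma adjusted p = 0.0686). Of 8 receptors measured, 4, 4, 1 and 3 rose, the other in the frontal cortex being Lrp1, an endocytic receptor, with 0.24 (SE 0.06) in males and 0.26 (SE 0.07) in females.

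Few activation and terminal genes were called. Of 11 measured genes of classical and lectin activation, Masp1, a lectin pathway protease gene, was the only one past the threshold. It rose by 0.18 (SE 0.05) in the male frontal cortex, 0.21 (SE 0.06) in the female frontal cortex and 0.26 (SE 0.06) in the female hippocampus. The proteases that associate with C1q had no called change, with C1ra between -0.11 and 0.31 and C1s1 between -0.07 and 0.08. C2, the next protease of the classical pathway, lay between 0.02 and 0.06. None of 3 measured genes of the alternative pathway and C5 passed, among them Hc, which encodes C5 (-0.03 to 0.10). Of 5 terminal component genes, C8g rose by 0.28 in the female frontal cortex (SE 0.08, limma adjusted p = 0.00953). Of all named genes 8.8% and 8.75% rose in the male and female frontal cortex, and 1.04% and 1.54% in the hippocampus. Counts this small do not set these genes apart from that background. Levels of these probe sets are not given, so a small fold was not told apart from a weak signal.

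Among 18 measured regulators, clusterin, an inhibitor of the terminal complex encoded by Clu, rose by 0.48 (SE 0.07, limma adjusted p = 6.42e-06) in the male and 0.64 (SE 0.08, limma adjusted p = 4.74e-07) in the female frontal cortex. Its hippocampus differences were 0.19 and 0.24, with limma adjusted p of 0.236 and 0.132. Vtn, which encodes vitronectin and is also a pericyte marker, rose by 0.42 in the male frontal cortex (SE 0.13). Sez6l, a neuronal gene of a family with complement control domains, fell by 0.26 (SE 0.09) in the male and by 0.41 (SE 0.10) in the female frontal cortex, and Sez6l2 fell by 0.24 in the female frontal cortex (SE 0.06). No regulator passed in the hippocampus. Calls made in 1 sex were not shown to differ from the other sex, since the tests of that difference called no gene.

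**Figure D5:**
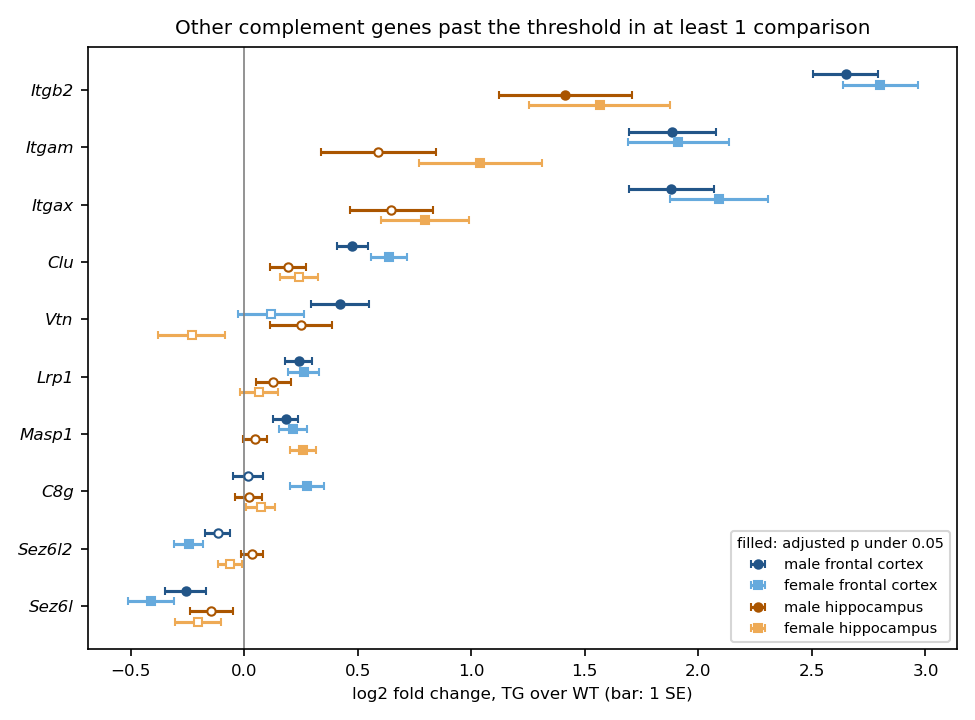
Log2 fold change of TG over WT (points, bars 1 SE) for the 10 other complement genes past the threshold in at least 1 of the 4 comparisons, with filled points where adjusted p was under 0.05. Itgb2, Itgam and Itgax lie between 1.88 and 2.80 in the frontal cortex, and the other 7 genes lie at or below 0.64.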

How the data were processed

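Each array has 1 deposited log2 value per probe set, made by the authors with RMA (R 3.2.2), according to the submitters' processing notes. RMA subtracts background, makes the array distributions equal and summarises the probes of a set. Which chip definition file served is not given here. Of 17856 probe sets, 17216 carried a gene symbol in the platform annotation and 640 did not.

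Values were used as deposited. In R 4.3.3, limma 3.58.1 (lmFit, eBayes) fitted the means of the 4 groups of a region, or of all 8 groups for contrasts between regions. All tests were two-sided, p-values were adjusted by Benjamini and Hochberg's method over the 17216 genes with a threshold of 0.05, and intervals cover 95%. The fits were tested on simulated data. Relations among TG arrays used deviations from the sex means and 100000 permutations within sex (20000 for those of the C1q chains with each other and for the meningeal markers). Since C3 and C4b were not measured under their symbols, 6 relations were run rather than 10. Figures were drawn with Python 3.11.15 and matplotlib 3.10.9.

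The members and lists were chosen with earlier results of these data known. Named genes are the members, the 4 largest rises and falls past the threshold among other complement genes in each comparison, and the 3 closest genes to each member. Vtn, Lrp1, Masp1, C8g, C1ra, C1s1, C2, Hc and Cst7, where outside that rule, and Itgam and Itgax in the male hippocampus were named after their values were seen. Alternatives were other scalings, gene filters, priors, array weights, groups in the fit, the mouse as a block, covariates of marker means, and leaving out arrays. Mouse numbers in the labels pair the regions of 28 mice. Deviations of the 2 arrays of a mouse had correlations across genes from -0.033 to 0.363 (median 0.111, over 0.1 in 15 mice).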

Additional observations from a re-analysis of the deposited data

Results flagged for a closer look

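Of 48 groups of arrays (6 genes in 8 groups), 2 held an array far from its group, and chance alone flags about 1 in 20 groups. C5ar1 on the male TG frontal cortex array of mouse 44 was 3.48, the highest of its group, with the nearest other array at 3.30. Serping1 on the male WT frontal cortex array of mouse 51 was 5.70, with the nearest other WT array at 4.62. The mean of the meningeal markers on that array was 5.27, the highest of the WT frontal cortex arrays, and its part in the Serping1 value was not tested.

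The TG effect differed between the regions, by a test of the difference in limma, for 4 genes. The effect in the hippocampus minus that in the frontal cortex was -1.07 for C1qa, -1.17 for C1qb, -1.06 for C1qc and -0.98 for C3ar1, with the sexes averaged.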

How the results depend on the processing

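Apart from leaving out single arrays, 624 of 689 values for the 6 genes and their counts kept their direction and their side of the threshold. With 28 or 30 single arrays left out in turn, the genes called higher numbered 5 to 5 in the male frontal cortex, 5 to 6 in the female frontal cortex, 2 to 5 in the male hippocampus and 4 to 4 in the female hippocampus. The male hippocampus count of 3 became 5 with array weights, with all 8 groups in a single fit, with the 2 groups compared only, and without the hippocampus arrays of mouse 7 or of mice 4 and 7. It was 5 without male TG mouse 41 or 45 or female TG mouse 4, 7 or 8, and 2 without male TG mouse 40 or 50 and with the choroid plexus or meningeal mean as a covariate, where the C1qb call was lost. The female hippocampus count of 4 became 0 with the 2 groups compared only, where limma called 13 genes higher in all. With the homeostatic microglia mean as a covariate the count was 0 in all 4 comparisons. There C3ar1 reversed to -0.20, -0.17, -0.10 and -0.0114 (male and female frontal cortex, male and female hippocampus), C5ar1 to -0.24 and -0.14 in the male and female frontal cortex, and Serping1 to -0.15 in the female frontal cortex. Differences near 0 also changed sign. In the frontal cortex the C1qb sex difference became -0.000431 with equal array medians, -0.00399 with quantile normalization and -0.0199 with array weights, and C3ar1 in WT females against males became -0.0098 with equal medians. In the hippocampus the C5ar1 sex difference became -0.0016 (quantile normalization), -0.0269 (array weights) and -0.0227 (without mice 4 and 7), and with array weights C1qa became -0.0477 and C1qc -0.0856. For WT regions, 1 gene (Serping1) was called with array weights or with a fixed term per mouse (replicate block). Under that replicate block, C1qa had -0.97 for its smaller TG effect in the hippocampus, and no other call changed. The relation of the C1q mean with Serping1 in the hippocampus passed without mouse 7, at 0.706. The causes were not tested.

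The count of all genes called moved by more than 1.5 times in several settings. In the male hippocampus 179 genes rose, 450 with array weights, 271 with all 8 groups, 390 with the 2 groups only, 54 with the choroid plexus and 40 with the meningeal covariate, 368 without mice 4 and 7, and 75 to 332 without single arrays. In the female hippocampus 265 rose, and 121 to 392 without single arrays. The WT sex differences of 27 genes in the frontal cortex became 49 and 73, and the 175 in the hippocampus 751 and 295, with array weights and all 8 groups, and 503 without mice 4 and 7. The region difference of 1186 genes became 2072 with array weights and 1883 without mice 4 and 7. Equal array medians moved the share of higher among called genes from 42.9% to 25.7% (male) and from 46.3% to 29.5% (female) in the frontal cortex, and from 79.9% to 54.9% (male) and from 62.4% to 47.4% (female) in the hippocampus. They also moved it from 37% to 26.9% and from 43.4% to 59.5% for WT sex differences in the frontal cortex and hippocampus. C3ar1 and C5ar1 lie below the median level of all genes, so the setting with brighter genes only gives no value for them.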

Other observations

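The hippocampus array of female TG mouse 7 lay within the WT range for other genes than C1qa and C1qb too, while C1qc was 7.95 against at most 7.87 in WT. Cst7, a cathepsin inhibitor that marks microglia at plaques, was 3.21 there, against 5.67 to 10.21 on the other female TG hippocampus arrays and 3.07 to 3.45 on the WT arrays. C3ar1 was 3.44 against 3.49 to 5.25 and 3.28 to 3.51, and C5ar1 was 3.03 against 3.05 to 3.52 and 2.998 to 3.11. Serping1 was 5.79, above the WT arrays, whose highest value was 5.41. No sample was moved to another group.

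Compared with the homeostatic microglia mean of the same array, C1qa lay 1.58 (SD 0.13) above it in male WT and 2.15 (SD 0.11) above it in male TG frontal cortex. In females the distance was 1.58 (SD 0.09) and 2.25 (SD 0.17). In the hippocampus it was 1.62 (SD 0.09) and 2.07 (SD 0.21) in males and 1.63 (SD 0.09) and 2.06 (SD 0.25) in females. For C3ar1 it was -2.99 (SD 0.19) and -3.09 (SD 0.28) in the male frontal cortex and -2.94 (SD 0.11) and -3.15 (SD 0.11) in the male hippocampus, WT and TG. These distances were not tested.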
